A study of Mus musculus with 6 samples.

Results

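Dorsal skin of the mouse carries a thin sheet of skeletal muscle beneath the dermis, so an array of whole skin also reads the contractile apparatus of that muscle. The genes described here are 56 genes of the sarcomere, of calcium handling and of muscle fibre type. They were chosen by name and function, with earlier results of these data known, out of 19938 genes that a probe set names alone. They comprise 12 genes of the thick filament, 11 of the thin filament, 13 of the Z-disc, M-band and cytoskeleton, 12 of calcium handling, 6 of energy supply and 2 muscle ubiquitin ligases. All 56 had a probe set of their own, and no filter on low values was applied. They were measured in dorsal skin of 3 Bmal1-/- mice, which lack the clock transcription factor BMAL1 in every tissue, and of 3 Bmal1+/- littermates, with 1 array per mouse. The Bmal1+/- controls still carry 1 mutant allele, so the comparison asks what is lost or gained when the remaining functional allele is absent, and wild-type skin is not part of it. All 6 mice were aged 22 days in the labels' age field and had hair follicles in telogen, the resting phase of the hair cycle. Bmal1+/- replicate 1 was the only male, and another label of that mouse gives day 23, so its sex, age label and identity cannot be told apart.

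In a sarcomere, myosin thick filaments pull on actin thin filaments that are anchored at the Z-disc, while the M-band and the giant protein titin hold the thick filaments in register. Contraction starts when the voltage sensor of the T-tubule opens the ryanodine receptor, and it ends when the calcium pump returns calcium to the sarcoplasmic reticulum. Fast and slow fibres build this machine from different members of the same gene families, and developing muscle uses embryonic and perinatal myosins that are later replaced.

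The values are intensities on a linear scale, and a probe set's intensity cannot be set against another's, so each gene, and each sum over a list of genes, was compared only with itself across mice. The arrays had medians between 219 and 235.5, and 2.58% to 3.34% of the values of an array lay below 16. Xist was near background only in Bmal1+/- replicate 1, at 7.97 against 4826 to 5271 in the other 5 mice, which fits the sex labels. The probe set of Arntl, the gene that encodes BMAL1, read 325, 365 and 355 in Bmal1+/- mice and 569, 610 and 664 in Bmal1-/- mice. No source read places that probe set inside or outside the deletion, so it does not check the genotype labels. Of 9 genes listed for heart muscle, Myh6, a heart myosin, lay between 98.4 and 125, Nppa, the atrial natriuretic peptide, between 60.7 and 96.4 and Ryr2, the heart ryanodine receptor, between 131 and 181 over the 6 mice. On the same list Actc1, Myl4 and Tnnt2, which developing skeletal muscle also uses, lay between 1649 and 7679, 435 and 702, and 235 and 288. The other 3, Tnni3, Nppb and Myl7, lay between 67.9 and 236.

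The promoters of these genes show what they share outside the arrays. RefSeq promoter sequences of GRCm38.p6 matched 41 of the 56 genes by symbol, and the 250 bases before each annotated start were searched on both strands, counting a gene if any of its starts held the motif. CAGCTG, an E-box bound by muscle regulators of the MyoD family, stood in 20 of the 41 genes (48.8%), against 14.7% of all 27025 genes in the table. CACGTG, the E-box bound by CLOCK and BMAL1, stood in 1 of the 41 (2.44%), against 6.86% of all genes. That gene was Actn2, which encodes an alpha-actinin of the Z-disc. TATAAA stood in 9 of the 41 (22.0%), against 14.3% of all genes, and a MEF2 motif stood in 3 (7.32%), against 0.592%. These are matches of letters and not sites shown to be bound.

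Genes with an unadjusted p under 0.05 by limma are described below. Of these, Myh2 and Trim63 had a promoter sequence, while Sln, Xirp1 and Cacng1 had none. The following 5 windows are of Myh2, Trim63, Acta1, the gene of highest intensity, Ckm, a creatine kinase gene, and Actn2, which held CACGTG. Capitals mark CAGCTG or CACGTG. The windows lie at chr11:67170777-67171026, plus strand, for Myh2, chr4:134314870-134315119, plus strand, for Trim63, chr8:123894776-123895025, minus strand, for Acta1, chr7:19410844-19411093, plus strand, for Ckm and chr13:12340733-12340982, minus strand, for Actn2, all in GRCm38.p6.
Myh2: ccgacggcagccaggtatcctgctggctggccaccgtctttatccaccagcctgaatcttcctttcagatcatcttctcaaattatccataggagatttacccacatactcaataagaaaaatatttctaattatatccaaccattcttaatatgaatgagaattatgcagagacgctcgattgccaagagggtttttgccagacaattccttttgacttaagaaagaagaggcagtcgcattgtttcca
Trim63: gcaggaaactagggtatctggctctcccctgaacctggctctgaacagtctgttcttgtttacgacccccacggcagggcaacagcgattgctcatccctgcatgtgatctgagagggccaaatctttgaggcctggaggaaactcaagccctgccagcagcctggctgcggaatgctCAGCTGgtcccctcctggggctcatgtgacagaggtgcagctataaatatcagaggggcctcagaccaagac
Acta1: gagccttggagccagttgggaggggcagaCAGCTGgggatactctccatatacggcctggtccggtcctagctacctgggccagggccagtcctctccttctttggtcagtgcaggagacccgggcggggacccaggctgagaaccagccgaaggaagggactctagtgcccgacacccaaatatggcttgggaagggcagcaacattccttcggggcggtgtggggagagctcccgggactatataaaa
Ckm: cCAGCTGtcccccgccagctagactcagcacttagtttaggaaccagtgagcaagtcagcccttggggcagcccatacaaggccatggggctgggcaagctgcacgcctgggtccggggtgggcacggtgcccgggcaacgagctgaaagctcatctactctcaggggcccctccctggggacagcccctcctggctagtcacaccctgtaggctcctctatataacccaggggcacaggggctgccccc
Actn2: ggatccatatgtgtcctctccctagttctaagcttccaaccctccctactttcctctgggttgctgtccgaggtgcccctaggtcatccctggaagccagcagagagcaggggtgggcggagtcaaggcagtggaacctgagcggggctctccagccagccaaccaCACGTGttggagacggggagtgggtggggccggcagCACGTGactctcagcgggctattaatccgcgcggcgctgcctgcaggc
The Myh2 window held neither E-box, Trim63, Acta1 and Ckm held 1 CAGCTG each, and Actn2 held 2 copies of CACGTG. Levels of Actn2 were 1840, 3228 and 2891 in Bmal1+/- mice and 2856, 2296 and 3392 in Bmal1-/- mice. The groups overlapped, and Bmal1-/- minus Bmal1+/- was 0.12 on the log2 scale (SE 0.20, adjusted p = 0.888 by limma).

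The contractile genes showed no shared shift between genotypes, and single genes led by Sln and Xirp1, higher in the means of Bmal1-/- mice, and Myh2, lower, gave the clearest differences without passing the adjusted test. With limma, 0 of the 56 genes passed an adjusted p of 0.05, where 0.231% of the 23410 tested probe sets did. The 56 were chosen with earlier results of these data known and leave out Tcap, Mylk4 and Casq2, described below, which passed. This 0 is therefore no unbiased count for sarcomere and calcium-handling genes. At an unadjusted p of 0.001 by limma, 0 of the 56 passed against 0.649% of all probe sets. The study set that threshold on Cyber-T p-values. By the Cyber-T type test, 3 of the 56 passed it, against 313 of the 23410 probe sets. At an unadjusted p of 0.05 by limma, 5 genes passed, which is 8.93% against 8.77% of all probe sets, so this share was at the background. These were Sln, Xirp1, Myh2, Trim63 and Cacng1. The Cyber-T type test, a regularised test like the one the study used, called 3 of the 56 (5.36%), Sln, Myh2 and Xirp1, where it called 1.17% of all probe sets. The log2 fold change, always given here as Bmal1-/- minus Bmal1+/- and also called the log2 difference, was positive for 26 genes and negative for 30, with a median of -0.010 over the 56 genes and 0.014 over all tested probe sets. In bulk skin, fewer muscle cells and less RNA per cell cannot be told apart.

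These comparisons were less precise than for most genes on the array. The median SD within a genotype was 0.26 on the log2 scale for the 56 genes, against 0.11 over all tested probe sets and 0.094 over the 15706 probe sets within the same range of mean intensity. The 95% interval of the log2 fold change stayed within 1 of 0 for 53 of the 56 genes but within 0.5 of 0 for only 27. It held 0 for 51. A change by a factor of 2 either way therefore lay outside the interval of 53 genes, while smaller changes could not be detected for many.

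**Figure D1:**
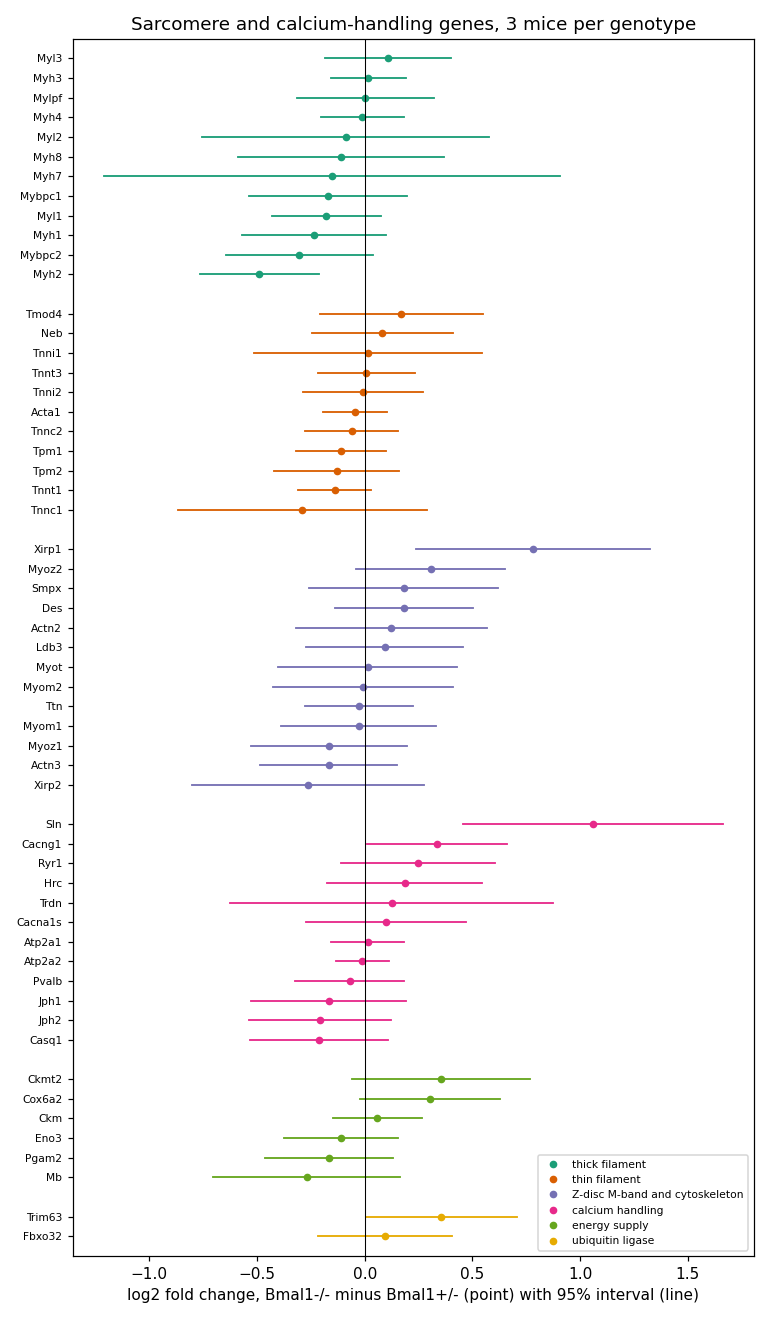
Log2 fold change of each of the 56 genes, Bmal1-/- minus Bmal1+/- (points), with its 95% interval from limma (lines), grouped and coloured by role, from 3 mice per genotype. Sln at 1.06 and Xirp1 at 0.78 lie farthest to the right and Myh2 at -0.49 farthest to the left, and 51 of the 56 intervals hold 0.

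Among the myosin heavy chains of the thick filament, Myh2, which encodes the heavy chain of fast oxidative fibres, stood apart. It read 2217, 3019 and 3250 in Bmal1+/- mice against 1979, 2093 and 1880 in Bmal1-/- mice. All 3 Bmal1-/- values lay under all 3 controls. Among the 56 genes this held for Myh2 alone (1.79%), where 7.68% of all probe sets did. The log2 fold change was -0.49 (SE 0.12, 95% interval -0.77 to -0.21), with an adjusted p of 0.236 by limma and 0.0119 by the Cyber-T type test. Leaving out Bmal1+/- replicate 1, the lowest control, gave -0.66 and an adjusted p of 0.0119 by limma. Leaving out any other single mouse gave -0.38 to -0.53 and adjusted p from 0.246 to 0.541, so the call rested on removing that control.

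The other fast heavy chains did not separate by genotype. Myh1, the chain of intermediate fast fibres, read 5390, 8412 and 7599 in Bmal1+/- mice and 5550, 5557 and 6813 in Bmal1-/- mice, which gave a log2 difference of -0.24 (SE 0.15, adjusted p = 0.684 by limma). Myh4, of the fastest glycolytic fibres, read 11274, 14239 and 12434 against 12640, 11676 and 13220, which gave a log2 difference of -0.011 (SE 0.086, adjusted p = 0.981 by limma). In both genes the ranges of the genotypes overlapped. Myh1, Myh2 and Myh4 are neighbours in 1 cluster of closely similar genes, and how far their probes share target RNA was not examined.

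Myh7, which encodes the slow heavy chain, varied more among littermates than between genotypes. It read 484, 258 and 80.6 in Bmal1+/- mice, a range of 6.01-fold, and 197, 251 and 154 in Bmal1-/- mice. The Bmal1-/- values all lay inside the Bmal1+/- range, and the interval of the log2 fold change ran from -1.21 to 0.91. Of the developmental chains, the perinatal Myh8 read 942, 1463 and 1854 against 1118, 1168 and 1554, and the embryonic Myh3 stayed between 761 and 906 in all 6 mice.

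The remaining thick filament genes encode myosin light chains and myosin-binding proteins. Mybpc2, the fast myosin-binding protein C, read 4066, 6105 and 4313 in Bmal1+/- mice and 3812, 3319 and 4493 in Bmal1-/- mice, with a log2 difference of -0.30 (SE 0.15, adjusted p = 0.613 by limma). The fast light chains gave -0.18 for Myl1 and 0.0028 for Mylpf, and the slow light chains gave -0.089 for Myl2 and 0.11 for Myl3. None of these passed the test. Over the 12 thick filament genes, 9 log2 fold changes were negative and the median was -0.13.

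The thin filament genes had the lowest median SD within a genotype of the groups by role, 0.22 on the log2 scale. Acta1, skeletal alpha-actin and the main protein of the filament, read 14912, 17437 and 15979 in Bmal1+/- mice and 15956, 14963 and 15820 in Bmal1-/- mice. The log2 fold change was -0.046, with an interval from -0.20 to 0.10. The fast troponins, which make the filament respond to calcium, gave -0.061 for Tnnc2, -0.0081 for Tnni2 and 0.0076 for Tnnt3. Neb, which encodes nebulin, the ruler along the actin filament, gave 0.082 (SE 0.15, adjusted p = 0.902 by limma). Among the 11 genes the log2 fold changes ran from -0.29 for Tnnc1, the slow troponin C, to 0.17 for Tmod4, which caps the pointed end of actin. The genotypes overlapped in all 11. Of all probe sets, 6.99% had every Bmal1-/- value above the controls and 7.68% every one below, so most overlapped too.

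At the Z-disc, Xirp1, which encodes an actin-binding protein of the Xin family, had the highest log2 fold change. It read 256, 488 and 404 in Bmal1+/- mice and 812, 458 and 728 in Bmal1-/- mice. Bmal1-/- replicates 1 and 3 exceeded all controls, while replicate 2 lay inside the control range. Its log2 fold change was 0.78 (SE 0.24, 95% interval 0.24 to 1.33), with an adjusted p of 0.377 by limma and 0.0248 by the Cyber-T type test. Its relative Xirp2 gave -0.26 (SE 0.24, adjusted p = 0.789 by limma), from 1372, 3075 and 2624 in Bmal1+/- mice against 1893, 1673 and 2017.

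Myoz2, a calcineurin-binding protein of slow fibres, read 459, 672 and 646 in Bmal1+/- mice and 824, 598 and 774 in Bmal1-/- mice, with a log2 difference of 0.31 (SE 0.15, adjusted p = 0.615 by limma). Its fast relative Myoz1 gave -0.17. Des, which encodes desmin, the intermediate filament that ties Z-discs together, gave 0.18 (SE 0.14, adjusted p = 0.751 by limma). Ttn, which encodes titin, gave -0.027 and the M-band genes Myom1 and Myom2 gave -0.028 and -0.0091. Des is also made by smooth muscle. Over the 13 genes, 7 log2 fold changes were positive and 6 negative.

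Sln showed the largest difference of the 56 genes. It encodes sarcolipin, a small peptide of the sarcoplasmic reticulum that binds the calcium pump and lowers its efficiency. It read 72.2, 83.2 and 182 in Bmal1+/- mice against 249, 187 and 275 in Bmal1-/- mice. All 3 Bmal1-/- values exceeded all 3 controls, although Bmal1+/- replicate 3 and Bmal1-/- replicate 2 were nearly equal. Among the 56 genes this held for Sln alone (1.79%), where 6.99% of all probe sets were so placed. Its log2 fold change was 1.06 (SE 0.27, 95% interval 0.45 to 1.66), with an adjusted p of 0.247 by limma and 0.00690 by the Cyber-T type test. Sln was dim, with all 3 controls under the array medians. Its log2 fold change was 1.17 when 1 was added to the intensities before the logarithm and 0.81 when 64 was added. Leaving out Bmal1+/- replicate 3, the highest control, gave 1.42 and an adjusted p of 0.0194 by limma. Leaving out any other single mouse gave 0.84 to 1.21 and adjusted p from 0.246 to 0.571, so here too the call rested on removing 1 control.

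The pumps that sarcolipin binds overlapped between genotypes. Atp2a1, the fast calcium pump, read 13043, 15649 and 14147 in Bmal1+/- mice and 14062, 13718 and 15378 in Bmal1-/- mice, with a log2 difference of 0.013 (SE 0.076, adjusted p = 0.975 by limma). Atp2a2, the slow pump, which other cells of skin also express, stayed between 3528 and 3896 in all 6 mice and was the least variable of the 56 genes in the ratio of highest to lowest mouse. Pvalb, the calcium buffer of fast fibres, gave -0.070 and Casq1, the calcium store protein of the fast reticulum, gave -0.21 (SE 0.14, adjusted p = 0.704 by limma).

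No gene of the release machinery passed the test. Cacng1, a subunit of the T-tubule calcium channel, read 481, 605 and 580 in Bmal1+/- mice and 685, 571 and 885 in Bmal1-/- mice, with a log2 difference of 0.34 (SE 0.14, adjusted p = 0.558 by limma). Bmal1-/- replicate 2 lay within the control range. Cacna1s, the voltage sensor itself, gave 0.10 and Ryr1, the release channel, gave 0.25 (SE 0.16, adjusted p = 0.688 by limma). Jph1 and Jph2, which hold the T-tubule against the reticulum, gave -0.17 and -0.21. Over the 12 calcium-handling genes 7 values were positive and 5 negative.

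Of the 6 energy supply genes, Ckmt2, the mitochondrial creatine kinase of muscle, gave 0.35 (SE 0.18, adjusted p = 0.626 by limma) and Cox6a2, a muscle subunit of cytochrome oxidase, gave 0.30 (SE 0.14, adjusted p = 0.597 by limma). Ckm, the cytosolic creatine kinase, gave 0.058. Mb, which encodes myoglobin, gave -0.27 from 1400, 1499 and 1404 in Bmal1+/- mice and 831, 1208 and 1663 in Bmal1-/- mice, so the Bmal1-/- values spanned both sides of the controls. Trim63, the ubiquitin ligase MuRF1 that marks thick filament proteins for breakdown, read 482, 682 and 520 against 720, 579 and 874, which gave a log2 difference of 0.35 (SE 0.16, adjusted p = 0.564 by limma). Fbxo32, the ligase atrogin-1, gave 0.093 (SE 0.14, adjusted p = 0.877 by limma).

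**Figure D2:**
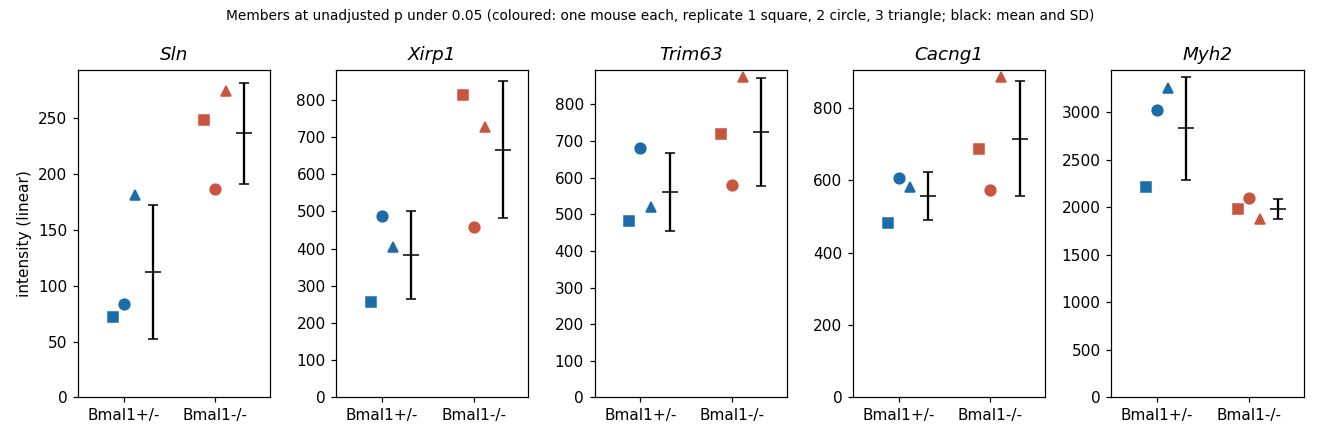
Linear intensity of the 5 genes with an unadjusted p under 0.05 in each mouse (coloured symbols: squares replicate 1, circles replicate 2, triangles replicate 3), with the mean and SD of 3 mice per genotype in black. In Sln the lowest Bmal1-/- mouse is at 187 and the highest Bmal1+/- mouse at 182, in Myh2 the order is turned, and in the other 3 genes Bmal1-/- replicate 2 lies among the controls.

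The spread between mice was shared across the contractile genes. Each gene's log2 value was set against its own mean over the 6 mice. The median deviation over the 56 genes was -0.19, 0.28 and -0.038 in Bmal1+/- replicates 1 to 3 and -0.015, -0.14 and 0.12 in Bmal1-/- replicates 1 to 3. Bmal1+/- replicate 2 had the highest value of 33 of the 56 genes, where it had the highest value of 12.7% of all tested probe sets. Bmal1+/- replicate 1 had the lowest value of 33 of the 56 genes, against 21.8% of all probe sets, and Bmal1-/- replicate 2 the lowest of 12. The lowest and the highest mouse were thus both controls.

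Skeletal muscle genes outside the 56 were also lowest in Bmal1+/- replicate 1, but Bmal1-/- replicate 3 was as high as Bmal1+/- replicate 2. The list of 11 measured genes that mark skeletal muscle elsewhere in the fibre had median deviations of -0.33, 0.28 and -0.17 in Bmal1+/- mice and 0.12, -0.22 and 0.29 in Bmal1-/- mice, and its summed intensity ran from 16070 to 23524 in Bmal1+/- and from 16692 to 22670 in Bmal1-/- mice. Over the same mice in the same order, the median deviations of 7 adipocyte genes were -0.12, 0.015, -0.16, 0.044, -0.097 and 0.20, and those of 6 endothelial genes -0.14, 0.028, -0.039, 0.0096, -0.10 and 0.31. All 6 endothelial genes were highest in Bmal1-/- replicate 3. Their summed intensities ran from 13841 to 15555 in Bmal1+/- and from 14067 to 17843 in Bmal1-/- mice for adipocyte genes, and from 3806 to 4125 and from 3909 to 5101 for endothelial genes. The summed intensity of 7 keratinocyte genes ran from 52881 to 58273 in Bmal1+/- and from 49622 to 55789 in Bmal1-/- mice, and that of 8 fibroblast genes from 74533 to 82188 and from 68335 to 76161. The smooth muscle list shares Des with the 56 genes, and its other 8 genes summed to 9771 to 10577 and 9588 to 9670. None of the genes of these 6 lists passed an adjusted p of 0.05 by limma, where 0.231% of all probe sets did. At an unadjusted p under 0.05 by limma there were 4 of 11 on the skeletal muscle list, where 8.77% of all probe sets passed. There was 1 each on the adipocyte, keratinocyte and smooth muscle lists, 2 on the fibroblast list and 0 on the endothelial list. The Cyber-T type test called 3 on the skeletal muscle list and 0 on the other 5, where it called 1.17% of all probe sets. The largest change on the skeletal muscle list was that of Myod1, a master regulator of muscle identity, at 201, 266 and 236 in Bmal1+/- mice and 403, 355 and 536 in Bmal1-/- mice (log2 fold change 0.82, SE 0.15, adjusted p = 0.0845 by limma and 5.09e-04 by the Cyber-T type test). Its ranges did not overlap. The part of the amount of muscle, fat or vessels in each skin sample in the differences between genotypes was not tested.

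**Figure D3:**
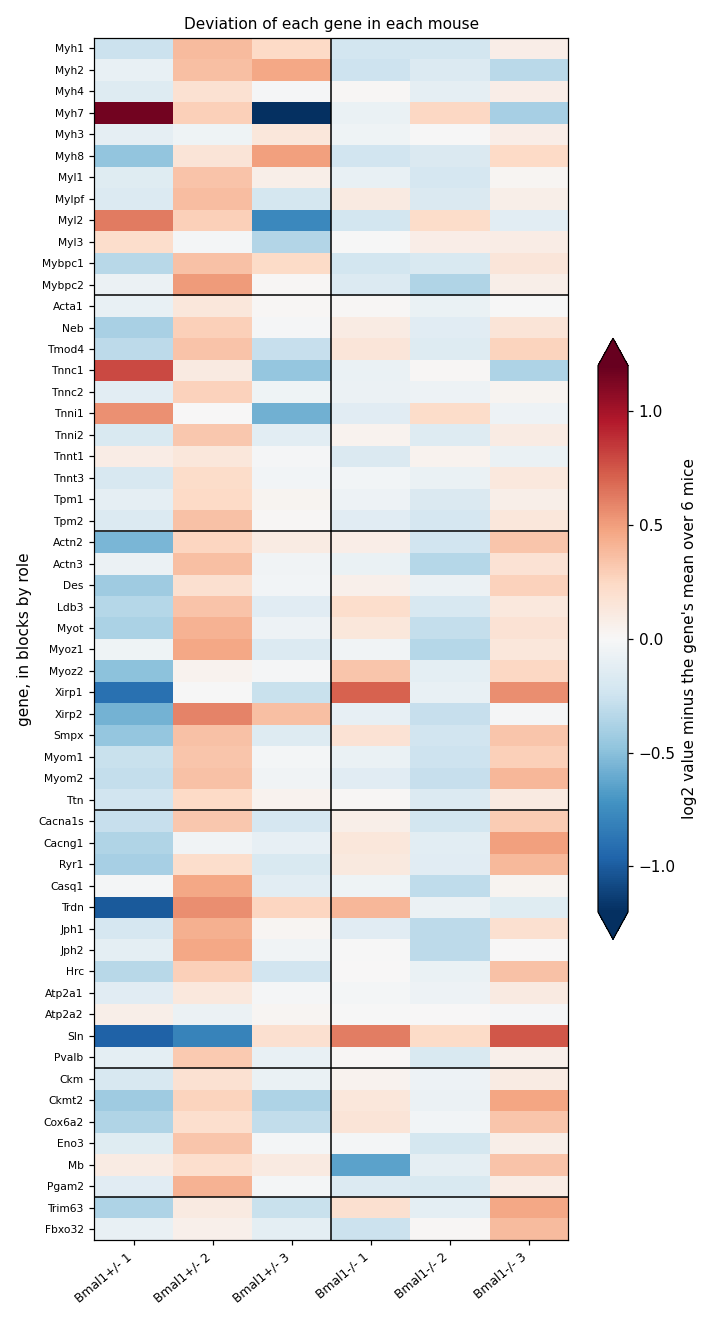
Deviation of the log2 value of each of the 56 genes (rows, in blocks by role) in each of the 6 mice (columns) from that gene's mean over the mice. Bmal1+/- replicate 2 is above the mean in most rows and replicate 1 below, while Myh7, Myl2, Tnnc1 and Tnni1 are highest in replicate 1 and lowest in replicate 3.

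Fibre type genes did not all follow this order. Of the 14 fast genes, 13 were highest in Bmal1+/- replicate 2. Of the 8 slow genes, 6 were highest in Bmal1+/- replicate 1 and 5 were lowest in Bmal1+/- replicate 3. The median deviation of the slow genes was 0.38, 0.076 and -0.41 in Bmal1+/- mice and -0.077, 0.058 and -0.069 in Bmal1-/- mice, so the 3 controls spread over both sides of the knockouts.

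Several slow sarcomere genes varied alike from mouse to mouse. Myl2, the slow regulatory light chain, read 267, 208 and 91.5 in Bmal1+/- mice and 142, 198 and 152 in Bmal1-/- mice. Tnnc1 read 389, 237 and 154 against 206, 221 and 165. Tnni1, the slow troponin I, read 219, 146 and 92.0 against 130, 172 and 138. All 3 had the same order of control mice as Myh7, with replicate 1 highest and replicate 3 lowest. Their interval of the log2 fold change was wide, from -0.87 to 0.29 for Tnnc1 and from -0.52 to 0.55 for Tnni1.

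The difference between the median deviations of the fast and the slow genes was -0.51, 0.28 and 0.37 in Bmal1+/- mice and 0.030, -0.24 and 0.14 in Bmal1-/- mice. The median log2 fold change was -0.12 over the fast genes, with 11 of 14 negative, and -0.050 over the slow genes, with 5 of 8 negative. Leaving out 1 mouse turned both signs. The fast median was 0.042 without Bmal1+/- replicate 2, and the slow median was 0.17 without Bmal1+/- replicate 1 and -0.23 without Bmal1+/- replicate 3. The spread between mice of the same medians was 0.20 and 0.29, larger than either shift. Any shift between fast and slow genes with genotype was not detectable among these 6 mice.

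**Figure D4:**
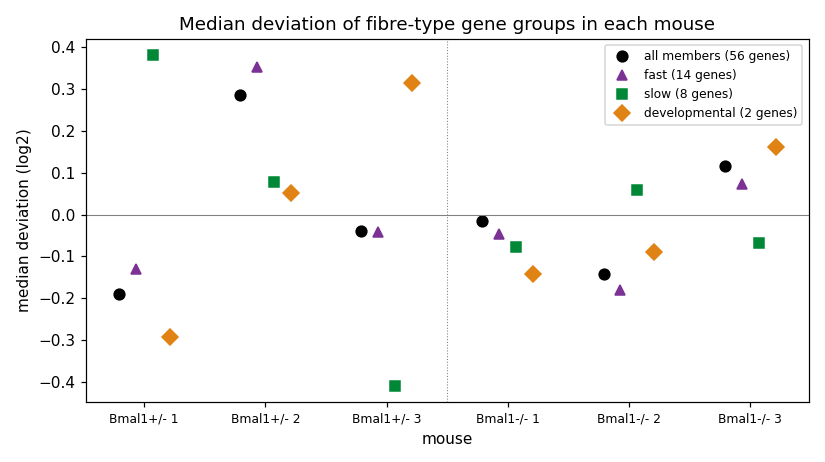
Median deviation (log2) in each mouse of all 56 genes (black), the 14 fast genes (purple), the 8 slow genes (green) and the 2 developmental myosins (orange), with Bmal1+/- mice left of the dotted line. The slow genes run from 0.38 to -0.41 across the 3 control mice, and the 3 Bmal1-/- mice lie between them.

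Trdn, which encodes triadin, the anchor between the ryanodine receptor and calsequestrin, was low in 1 control. The array holds 19 probe sets for it, and the brightest read 1316, 3926 and 3193 in Bmal1+/- mice and 3511, 2538 and 2412 in Bmal1-/- mice. All 19 probe sets were lowest in Bmal1+/- replicate 1, and the next mouse was above it by a ratio of 1.51 to 3.17. The log2 fold change was positive for 17 of the 19 and negative for 2, and ran from -0.46 to 0.31. For the brightest it was 0.13 (SE 0.33, adjusted p = 0.941 by limma). These directions rested on that mouse. Without Bmal1+/- replicate 1 all 19 were negative, from -0.91 to -0.18, with -0.35 for the brightest. In that fit 2 of the 19 passed an adjusted p of 0.05 by limma, where 43 of all 23410 probe sets did. The brightest did not pass under any alternative setting, and all 19 read 1 gene in the same mice. With 1 male mouse, sex and mouse cannot be told apart in this pattern.

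**Figure D5:**
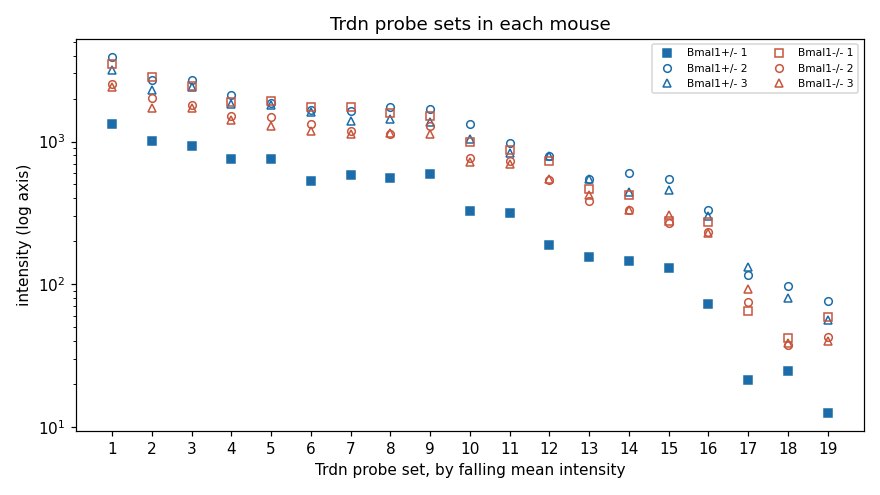
Intensity on a log axis of the 19 Trdn probe sets, ordered by mean intensity, in each mouse (blue Bmal1+/-, red Bmal1-/-, squares replicate 1, circles replicate 2, triangles replicate 3). The filled squares, Bmal1+/- replicate 1, are the lowest symbols at all 19 probe sets.

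Other genes of the same pathways were taken from lists of related genes. Some genes stand on more than 1 list, here and among the lists above, so a gene can enter several counts. Of 29 other sarcomere genes measured, 2 were lower and 0 higher at an adjusted p of 0.05 by limma, where 0.132% of all probe sets were lower and 0.0982% higher. The Cyber-T type test called 4 of the 29, 3 lower and 1 higher, against 1.17% of all probe sets. The lower ones were Tcap, Mylk4 and Actc1. Tcap, the titin cap of the Z-disc, read 1316, 2074 and 1333 in Bmal1+/- mice and 150, 177 and 251 in Bmal1-/- mice, which gave a log2 difference of -2.93 (SE 0.20, adjusted p = 2.37e-04 by limma). Mylk4, a kinase of the family that phosphorylates myosin light chains, read 534, 1007 and 494 against 64.4, 30.2 and 59.9, which gave a log2 difference of -3.33 (SE 0.27, adjusted p = 9.52e-04 by limma). Both genotype ranges were far apart. Named after its values were seen, Myom3, an M-band protein, read 291, 454 and 505 in Bmal1+/- mice against 829, 659 and 781 in Bmal1-/- mice. All 3 Bmal1-/- values exceeded the controls, and the log2 difference was 0.87 (SE 0.17), with an adjusted p of 0.124 by limma and 5.55e-04 by the Cyber-T type test. In contrast, titin itself and the Z-disc genes above overlapped between genotypes.

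Over all probe sets, 0.0982% rose and 0.132% fell at the same threshold by limma. Of 18 other genes of excitation and calcium release measured, 1 rose and 0 fell. The Cyber-T type test called 2, both higher, against 1.17% of all probe sets. The gene called by limma was Casq2, the calcium store protein of slow and cardiac muscle. It read 448, 607 and 573 in Bmal1+/- mice and 1046, 878 and 1057 in Bmal1-/- mice. Its log2 fold change was 0.86 (SE 0.12, adjusted p = 0.0185 by limma), where its fast relative Casq1 was -0.21. The second by the Cyber-T type test was Chrna1, a subunit of the acetylcholine receptor, also named after its values were seen. Chrna1 is on the skeletal muscle list as well. It read 145, 187 and 144 against 214, 207 and 288, and the log2 difference was 0.53 (SE 0.14), with an adjusted p of 0.275 by limma and 0.0400 by the Cyber-T type test. By limma, 1 of 12 myogenic regulators rose, where 0.0982% of all probe sets did. The Cyber-T type test called 3 of the 12, all higher, and 1.17% of all probe sets in either direction. Of these 3, Myod1 and Myf6 are also on the skeletal muscle list. Tead4, a transcription factor of muscle gene promoters, read 299, 309 and 310 against 448, 433 and 507, which gave a log2 difference of 0.57 (SE 0.078, adjusted p = 0.0216 by limma).

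At an adjusted p of 0.05 by limma, 0.231% of all probe sets passed. None of 17 genes of muscle metabolism and none of 16 atrophy genes did. In each list 1 gene had an unadjusted p under 0.05, where 8.77% of all probe sets did. The Cyber-T type test called Cox8b on the first list and none on the second, against 1.17% of all probe sets. The largest changes in these lists were -0.61 for Fbp2, the muscle fructose bisphosphatase, 0.54 for Cox8b, a subunit of cytochrome oxidase, 0.82 for Pdk4, which restrains glucose oxidation, and -0.73 for Mstn, which encodes myostatin. Pdk4 read 355, 925 and 1082 in Bmal1+/- mice and 395, 1433 and 3548 in Bmal1-/- mice, and the ranges overlapped. Among 9 cardiac markers none passed by limma, with 1 at an unadjusted p under 0.05. Over all probe sets these shares were 0.231% and 8.77%. The largest change was that of Actc1, the cardiac alpha-actin, which is also counted among the other sarcomere genes above. Actc1 read 4515, 7679 and 2628 against 2692, 2128 and 1649, which gave a log2 difference of -1.08 (SE 0.32, adjusted p = 0.347 by limma and 0.0104 by the Cyber-T type test).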

How the data were processed

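Dorsal skin RNA of 3 Bmal1-/- and 3 Bmal1+/- mice was hybridised to mouse gene arrays. Per the labels, the authors deposited intensity values made with PLIER 2.0 in Affymetrix Expression Console 1.1. How background and scale between arrays were handled, and the build, is not stated in any source read. From these deposited linear intensity values, log2(intensity + 16) was computed, so fold changes of dim genes are understated. The 23410 of 35557 probe sets with at least 1 gene symbol in the platform annotation were fitted with limma 3.58.1 (lmFit, eBayes with intensity trend) in R 4.3.3, two-sided, with Benjamini-Hochberg adjustment over all 23410. Probe sets naming 1 gene numbered 21789, those naming several 1621. A gene was read from its brightest probe set naming it alone. The Cyber-T type test averaged SDs over a window of 101 probe sets, with a prior weight of 10. Precision is limited by having 3 arrays per genotype. Genes outside the 56 were named if they passed the adjusted threshold by limma or, in lists where none did, from the 2 with the largest change. Exceptions were the cardiac markers, all of which were given, Arntl, the targeted gene, and Xist, which marks sex. Myom3 and Chrna1 were named after their values were seen. The genes and lists were chosen with earlier results of these data known. Alternatives changed the offset, normalization, filter, rows, variance model, test, pairing, sex term or probe set, or left out 1 array.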

Additional observations from a re-analysis of the deposited data

How the results depend on the processing

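The medians of the 56, the fast and the slow genes moved by less than the spread between mice under every alternative run. Their signs turned, from -0.096 to 0.079, -0.19 to 0.042 and -0.23 to 0.17, when single mice were left out. The count of the 56 genes at an adjusted p under 0.05, 0 by limma, was 3 by the Cyber-T type test (Sln, Myh2 and Xirp1) and 1 with sex as a covariate (Myh2), and ranged from 0 to 1 when single mice were left out. It was 2 (Sln and Xirp1, adjusted p = 4.32e-04 and 0.0109) when arrays were centred on the median of the 56 genes, an alternative chosen after seeing the data. The count at an unadjusted p under 0.001, also 0, was 3 by the Cyber-T type test, 2 with sex as a covariate, 2 with that centring and 0 to 2 when single mice were left out. Of all 23410 probe sets, 54 passed the adjusted threshold by limma and 273 by the Cyber-T type test. It was 43 with sex as a covariate, 73 with that centring and 38 to 57 when single mice were left out. At the unadjusted 0.001 these counts over all probe sets were 152, 313, 114, 99 and 111 to 148. Sln, Myh2 and Xirp1 kept their direction under all 18 settings and Cacng1 and Trim63 did too, while 32 of the 56 genes turned direction under at least 1. Settings that changed only the filter, rows, variance model, test or pairing leave the fold change as it was. For Sln and Myh2, leaving out 1 mouse cannot turn the direction, as their genotype ranges do not overlap. These genes were named for their differences in the same values, so their kept direction is not separate support. With 1 male, the sex term and leaving out Bmal1+/- replicate 1 give the same fold changes. The adjusted p ranged over the settings from 4.32e-04 to 0.573 for Sln, from 0.0111 to 1.00 for Myh2 and from 0.0109 to 0.700 for Xirp1. With the replicate number as a block, 0 of the 56 genes passed the adjusted threshold and 1 the unadjusted 0.001. Of all 23410 probe sets, 54 and 143 did in that fit. Same-numbered mice had correlations of 0.078, -0.35 and 0.056 over probe sets, and differently numbered mice of the 2 genotypes from -0.26 to 0.26. With 3 mice per genotype, these values cannot decide whether same-numbered mice share more than a number. The cause of these differences was not tested.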
